A study of Mus musculus with 16 samples.

Results

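Lipoprotein handling in the hippocampus was examined through 10 genes chosen by name: Apoe, Apod, Lrp1, Lrp8, Vldlr, Abca1, Abcg1, Lcat, Pltp and Lpl. Each name matched 1 of the 55335 genes in the count table, and all 10 were among the 16475 genes with enough counts to be tested. Whole hippocampi of 16 female mice were sequenced, 4 in each of 4 groups, at an age given as 10 months. WT mice of the C57BL/6J × 129S1 background received 28 days of intracerebroventricular vehicle (WT-D, 0.8% DMSO in artificial cerebrospinal fluid) or CAY10566 at 80 µM in the same vehicle (WT-S). The 3xTg mice, a model of Alzheimer's disease, received the same vehicle (3xTg-D) or inhibitor (3xTg-S). CAY10566 inhibits stearoyl-CoA desaturase (SCD), the enzyme that makes monounsaturated fatty acids. Every mouse carried an implanted pump, so all groups shared the surgery and the DMSO. The genetic changes of the 3xTg line include 2 human transgenes, mutant APP and mutant tau, which the neuronal Thy1.2 regulatory element drives, and the WT mice carry neither.

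In the brain, lipoproteins are made locally, because plasma particles largely do not cross the blood-brain barrier. Astrocytes and other glia secrete apolipoproteins, the ABC transporters load them with cholesterol and phospholipid, plasma-type enzymes remodel the particles, and receptors of the LDL receptor family take them up into neurons. Human APOE genotype is the strongest common genetic risk factor for late-onset Alzheimer's disease. The question asked of each gene was whether its transcript level differed between genotypes, between vehicle and CAY10566, or whether the inhibitor acted differently in the 2 genotypes.

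Expression is given as CPM, the reads of a gene scaled to the library's total after TMM normalization. Differences are log2 values from edgeR's quasi-likelihood test, the second-named group minus the first, with SE and 95% intervals. A gene is said to be called where that test's p, before adjustment, did not exceed 0.01, which is the study's threshold. Libraries held 15413385 to 23590149 reads on genes, and the least counted of the 10 genes, Lcat, still had 229 to 492 reads in each mouse. The replicate numbers are not tied to a stated litter or surgery day, so p-values measure the spread between these mice. Thy1, whose regulatory element is in the transgenes, had 517 to 625 CPM in the 8 WT mice and 1566 to 2141 CPM in the 8 3xTg mice, so no genotype label was contradicted. Defining markers of neurons, astrocytes, oligodendrocytes and microglia were present in all 16 libraries. In bulk tissue, fewer cells of a type and less RNA per cell cannot be told apart.

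Apoe was by far the most abundant of the 10 transcripts per length. Per kb of exon it had 542 CPM on average over the 16 mice (415 to 808), and it held 45.7% to 67.3% of the CPM summed over the 10 genes. Apod followed with 47.7 CPM per kb, and its range of 30.7 to 79.9 did not overlap that of Apoe above or Lrp1 below. The next 6 genes stood close together, at 17.0 CPM per kb for Lrp1, 15.9 for Lpl, 12.8 for Lcat, 12.01 for Vldlr, 11.7 for Pltp and 10.8 for Abcg1. Each of these neighbours overlapped the next in range over the mice. Lrp8 at 7.41 and Abca1 at 5.38 CPM per kb were lowest. Between mice, Apod varied most, with a coefficient of variation of 30.9%, then Lrp1 with 25.1%, Pltp with 18.4% and Apoe with 16.7%. Abcg1 varied least, at 6.14%.

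**Figure D1:**
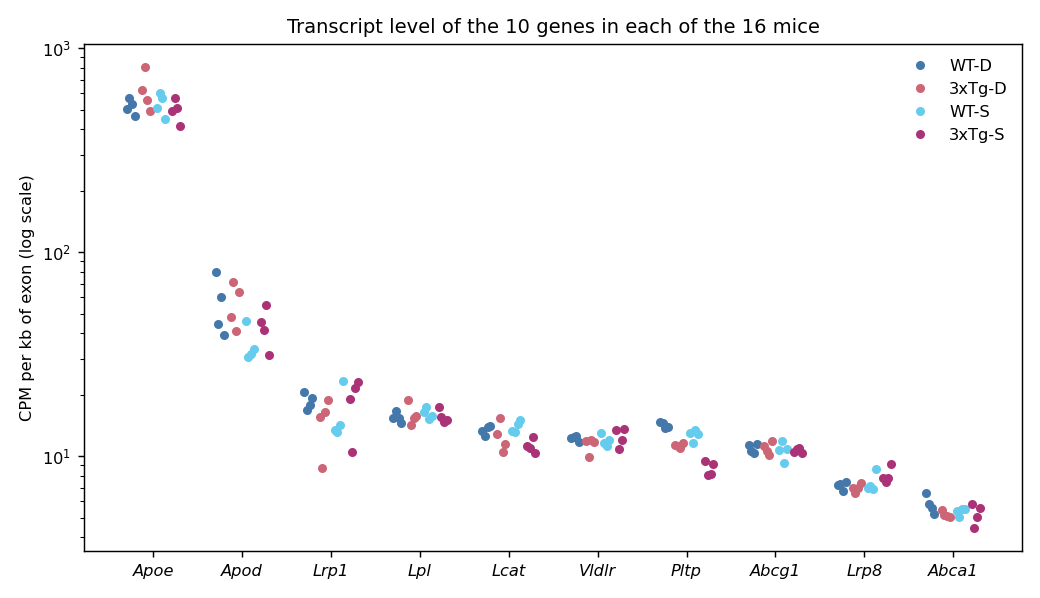
Transcript level of the 10 genes, in CPM per kb of exon on a log axis, with 1 point per mouse coloured by group. Apoe lies between 415 and 808 in every mouse, and the Pltp points separate by group, from 13.8 to 14.7 in WT-D down to 8.08 to 9.47 in 3xTg-S.

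Of the 10 genes, Pltp and Lcat were the ones called in any comparison. Pltp (chr2:164839518-164857711, minus strand, ENSMUSG00000017754.13) encodes phospholipid transfer protein, which moves phospholipids between particles and changes their size. Lcat (chr8:105939551-105943382, minus strand, ENSMUSG00000035237.7) encodes lecithin-cholesterol acyltransferase, which esterifies particle cholesterol with a fatty acid taken from phosphatidylcholine. RefSeq promoter windows (GRCm38.p6, 250 bases before to 50 after a gene start) were found for 8 of the 10 genes, 13 windows in all. The 2 shown are those of the called genes, at chr2:164857659-164857958 and chr8:105943353-105943652, both on the minus strand, written 5′ to 3′ with the motif matches in capitals.
Pltp: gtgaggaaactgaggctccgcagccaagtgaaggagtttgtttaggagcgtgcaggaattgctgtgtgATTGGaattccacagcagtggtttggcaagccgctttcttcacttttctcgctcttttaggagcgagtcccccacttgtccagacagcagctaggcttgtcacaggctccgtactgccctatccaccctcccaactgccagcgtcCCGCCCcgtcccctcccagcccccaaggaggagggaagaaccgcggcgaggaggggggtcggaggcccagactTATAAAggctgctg
Lcat: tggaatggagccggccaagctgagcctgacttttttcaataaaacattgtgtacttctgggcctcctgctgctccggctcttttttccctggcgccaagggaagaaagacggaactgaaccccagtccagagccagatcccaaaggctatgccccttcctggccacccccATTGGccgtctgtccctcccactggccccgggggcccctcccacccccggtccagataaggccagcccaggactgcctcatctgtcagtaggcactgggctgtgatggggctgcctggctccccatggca
The letters were searched on both strands for 6 motifs. The nuclear receptor motif AGGTCA and the direct repeat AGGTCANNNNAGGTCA, the spacing that LXR/RXR dimers prefer and which contains that motif, were in neither window. Among all 32851 RefSeq windows of this length, 16.3% held the single motif and 0.0152% the repeat. Pltp held GGGCGG (35.7% of all windows) read from the other strand at −37, CCAAT (37.4%) from the other strand at −182, and TATAAA (13.6%) at 37, inside the transcribed part. Lcat held CCAAT from the other strand at −80. Neither held the E box CACGTG (7.15% of all windows). These matches describe letters, not binding.

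Pltp was lower in 3xTg than in WT mice under either infusion, and lower with CAY10566 in 3xTg mice. The 4 WT-D mice had 37.7, 37.3, 35.3 and 35.6 CPM, and the 4 3xTg-D mice had 29.1, 28.6, 28.1 and 29.7 CPM. Every 3xTg-D mouse was below every WT-D mouse, and the spread within each group was 1.18 and 0.699 CPM (SD, n = 4). WT-S mice had 33.3, 29.8, 34.4 and 33.0 CPM, and 3xTg-S mice had 24.3, 20.7, 21.0 and 23.5 CPM. The 4 3xTg-S values were the lowest of the 16, and no 2 of the 4 groups overlapped, although the lowest WT-S mouse lay just above the highest 3xTg-D mouse. Between WT-D and 3xTg-D the level was 1.26-fold lower in 3xTg-D (log2 −0.34 ± 0.05 SE, interval −0.45 to −0.23, adjusted p = 0.0067 by edgeR). With CAY10566 in both genotypes it was 1.47-fold lower in 3xTg-S (−0.56 ± 0.08, interval −0.75 to −0.37, adjusted p = 0.0082 by edgeR). Within 3xTg mice, CAY10566 gave a level 1.29-fold lower than vehicle (−0.37 ± 0.07, interval −0.53 to −0.20), which was called but not kept after adjustment over all genes by edgeR (adjusted p = 0.722).

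In WT mice the difference in Pltp between CAY10566 and vehicle was smaller and not called. The fitted change was −0.16 ± 0.06 (interval −0.30 to −0.02, edgeR, adjusted p = 1.00), although all 4 WT-S mice were below all 4 WT-D mice. The test of the difference between the genotypes' responses, the interaction over all 16 mice, gave −0.21 with a 95% interval of −0.40 to −0.01 (edgeR, adjusted p = 0.788). A larger response in 3xTg mice was therefore not called. Between vehicle-infused WT and CAY10566-infused 3xTg mice, WT-D and 3xTg-S, the level differed 1.65-fold (−0.73 ± 0.07, interval −0.88 to −0.57, adjusted p = 0.00034 by edgeR). This comparison shares its WT-D mice with the vehicle comparison.

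**Figure D2:**
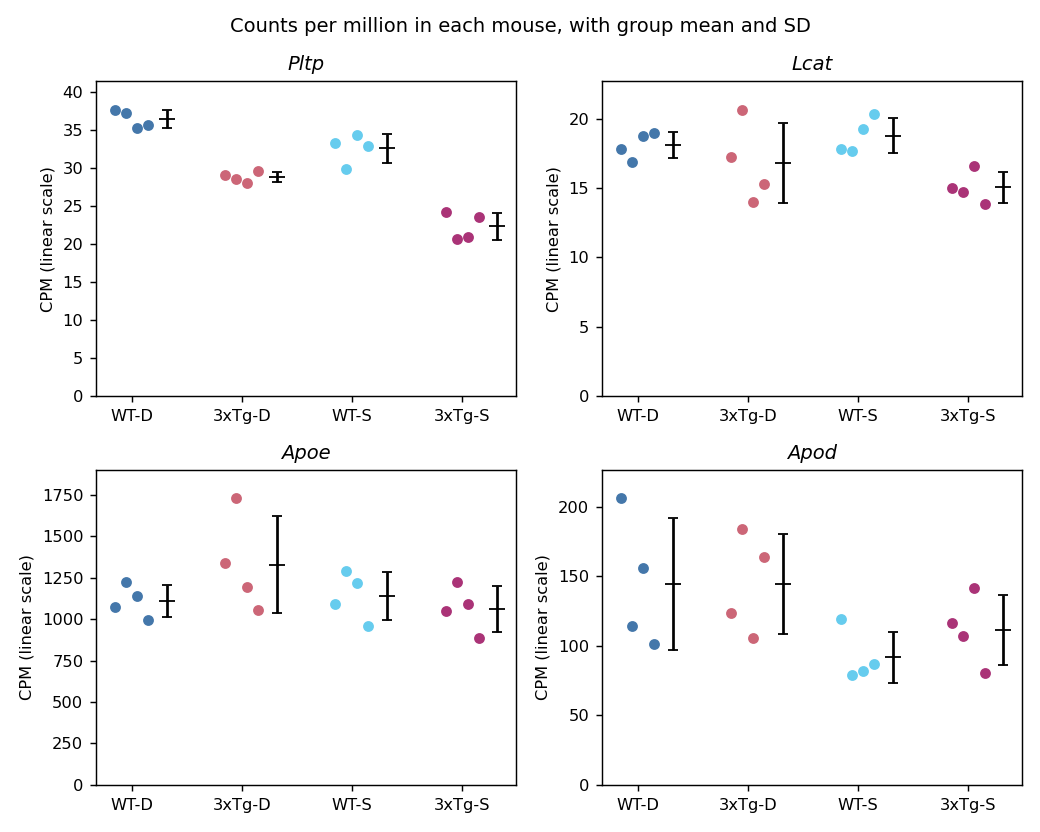
CPM of Pltp, Lcat, Apoe and Apod in each mouse on linear axes from 0, with 1 point per mouse and the group mean ± SD (n = 4) in black. Pltp steps down from 35.3 to 37.7 CPM in WT-D to 20.7 to 24.3 CPM in 3xTg-S, while the groups overlap for Apoe, where the highest mouse is 3xTg-D mouse 2 at 1727 CPM.

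Part of the Pltp signal could not be assigned to a strand. Its exons share 495 bp, 19.3% of their length, with Ctsa on the opposite strand, a lysosomal carboxypeptidase gene, and the strand setting of the counting was not stated. The Pltp level is uncertain to that extent. Ctsa itself was higher in 3xTg-D mice, at 69.4 ± 0.972 against 60.9 ± 4.47 CPM in WT-D (SD, n = 4; log2 0.19, called, adjusted p = 0.189 by edgeR), the direction opposite to Pltp. It differed little between WT-S and 3xTg-S (0.06, adjusted p = 0.811 by edgeR). Within 3xTg mice Ctsa was fitted lower with CAY10566, the same direction as Pltp (−0.18, not called, adjusted p = 0.722 by edgeR). Ctsa was −0.07 in WT-D vs WT-S and −0.01 in WT-D vs 3xTg-S, neither called. How far shared reads entered the Pltp differences was not tested. Of the 10 tested genes nearest Pltp on chromosome 2, Ctsa was the 1 called in WT-D vs 3xTg-D, and none was called in the other comparisons.

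Markers of the ventricular lining were lowest in 3xTg-S mice, as Pltp was. With vehicle their sums overlapped between the genotypes, unlike Pltp, and 4 of the 5 were fitted lower in 3xTg-D while Ccdc153 was fitted higher (0.06). They are scarce transcripts, down to 0.378 CPM for Dynlrb2 in a 3xTg-S mouse. Summed over 5 ependymal markers (Foxj1, Tmem212, Ccdc153, Rarres2 and Dynlrb2), all above 0, expression was 10.4 to 12.1 CPM in 3xTg-S mice. The WT-D mice had 19.8 to 28.4 CPM, the WT-S mice 16.4 to 25.7 CPM, and the 3xTg-D mice 15.97 to 24.2 CPM. In 3xTg-D vs 3xTg-S, 3 of the 5 were called lower, among them Foxj1, the master regulator of motile cilia (−0.66 ± 0.17, adjusted p = 0.722 by edgeR). Between genotypes, 1 of the 5 was called lower with vehicle, Foxj1 (−0.57, adjusted p = 0.180 by edgeR), and 3 of the 5 were called lower with CAY10566, Foxj1 among them (−0.75, adjusted p = 0.039 by edgeR). Of the same 5, 4 were called lower in WT-D vs 3xTg-S and 2 passed adjustment (Foxj1 −1.25, adjusted p = 0.0045 by edgeR). With the ependymal marker score as a covariate, chosen after the values were seen, Pltp was lower by a similar amount between 3xTg-D and 3xTg-S (−0.44) but was no longer called (adjusted p = 1.00 by edgeR). Under the same covariate the genotype difference was −0.33 with vehicle and −0.63 with CAY10566, both called, but neither passed adjustment (adjusted p = 0.0505 and 0.424 by edgeR). Over all 16475 tested genes, this covariate left 16 called in 3xTg-D vs 3xTg-S, against 149 without it. It left 628 against 809 in WT-D vs 3xTg-D, and 211 against 702 in WT-S vs 3xTg-S. All 4 3xTg-S mice had the lowest sums, so comparisons with 3xTg-S cannot separate these markers from the group. The part of the ependymal markers in the Pltp result beyond this fit was not tested. Endothelial markers summed to 158 to 262 CPM over the 16 mice and overlapped between all groups. All 8 were fitted lower in 3xTg than in WT mice under either infusion, and none was called. With their score as a covariate Pltp was −0.34 with vehicle and −0.51 with CAY10566 between genotypes, both called (adjusted p = 0.0512 and 0.017 by edgeR). Of 8 fibroblast and leptomeningeal markers, 7 were fitted lower in WT-D vs 3xTg-D, at a median of −0.55, and none was called. The 2 called lower in WT-D vs 3xTg-S were Col1a2 and Slc6a13. With the fibroblast score as covariate the vehicle difference in Pltp was −0.34 and called (adjusted p = 0.054 by edgeR).

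**Figure D3:**
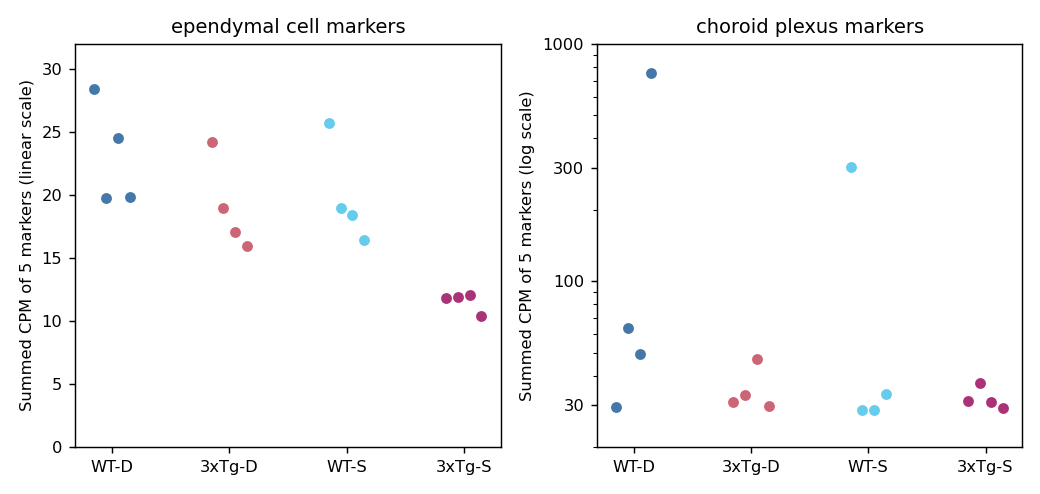
Summed CPM of 5 tested ependymal markers (linear axis from 0) and of 9 listed choroid plexus markers (log axis), 1 point per mouse. The choroid plexus axis label counts only the 5 markers that were tested. All 4 3xTg-S mice lie below every other mouse for the ependymal sum, and 2 mice, WT-D mouse 4 at 754 and WT-S mouse 1 at 302, stand far above the rest for the choroid plexus sum.

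Lcat was lower in 3xTg-S than in either WT group. WT-S mice had 17.8, 17.7, 19.3 and 20.3 CPM, and 3xTg-S mice had 15.0, 14.7, 16.6 and 13.9 CPM, so the groups did not overlap. The difference was 1.26-fold (−0.33 ± 0.09, interval −0.53 to −0.14, adjusted p = 0.126 by edgeR). WT-D mice had 17.8, 16.9, 18.7 and 18.9 CPM, all above the 3xTg-S mice (−0.29 ± 0.08, interval −0.46 to −0.11, adjusted p = 0.123 by edgeR). The 3xTg-D mice spread from 14.0 to 20.6 CPM and overlapped all other groups, and with vehicle the genotype difference was not called (−0.10, interval −0.35 to 0.15). Neither Lcat call passed adjustment over all genes. The first was lost on leaving out WT-S mouse 3, WT-S mouse 4 or 3xTg-S mouse 4 (log2 −0.32, −0.30 and −0.30). The second was lost without WT-D mouse 1, 3 or 4 or 3xTg-S mouse 1 or 4, at −0.25 to −0.29. It was also lost in 1 fit of all 16 mice (−0.27) and with a choroid plexus (−0.23), fibroblast (−0.27) or ependymal (−0.06) marker score as covariate, and the last of these also ended the first call (−0.38).

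Lpl, the lipase that hydrolyses particle triglyceride (chr8:68880491-68907448), was level across the design. Group means were 162 ± 8.97 CPM for WT-D, 169.7 ± 9.91 for WT-S, 168.5 ± 20.7 for 3xTg-D and 164 ± 12.2 for 3xTg-S (SD, n = 4). No comparison called it, and the 95% intervals of its 5 pairwise log2 differences all lay between −0.24 and 0.24.

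Apoe (chr7:19696109-19699188, minus strand) did not pass the test in any comparison. WT-D mice had 1073, 1222, 1140 and 993 CPM, and 3xTg-D mice had 1339, 1727, 1191 and 1056 CPM. The 3xTg-D mean of 1328 ± 290 CPM (SD, n = 4) was above the WT-D mean of 1107 ± 97.5 CPM, but the groups overlapped (log2 0.27, interval −0.03 to 0.56, adjusted p = 0.459 by edgeR). WT-S mice had 1092, 1290, 1216 and 961 CPM, and 3xTg-S mice 1051, 1221, 1090 and 887 CPM. Between 3xTg-D and 3xTg-S the difference was −0.32 (interval −0.65 to 0.00, adjusted p = 0.722 by edgeR). One mouse carried much of both differences: without 3xTg-D mouse 2, they were 0.11 and −0.18. The interaction was −0.36 (interval −0.77 to 0.04, edgeR, adjusted p = 0.788).

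Apod (chr16:31296192-31314808, minus strand), a lipocalin made by glia that associates with lipoproteins, was lowest in WT-S mice. WT-D mice had 206, 114, 156 and 101 CPM, against 119, 79.1, 81.9 and 86.6 CPM in WT-S. The WT-S range overlapped that of WT-D through WT-S mouse 1. The difference was 1.57-fold and was not called (−0.66 ± 0.21, interval −1.13 to −0.18, adjusted p = 1.00 by edgeR). In this comparison the replicate numbers were taken to pair the mice, from correlations in these same data and not from a stated litter or surgery day. With the number as a block the change was −0.62 and was called (edgeR, adjusted p = 0.681). WT-D mouse 4 and WT-S mouse 1 were also the 2 libraries with the most choroid plexus transcripts. Without them, an alternative chosen after the values were seen, the difference was −0.95 and was called (adjusted p = 0.999 by edgeR). Leaving out WT-D mouse 2, WT-D mouse 4 or WT-S mouse 1 alone also gave a call, at −0.75, −0.79 and −0.81. In the 3xTg mice Apod was 124, 184, 106 and 164 CPM with vehicle and 117, 107, 141 and 80.6 CPM with CAY10566 (−0.37, interval −0.80 to 0.05), and the interaction was 0.28 (interval −0.39 to 0.95), so the responses of the genotypes were not shown to differ.

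The 3 receptors were not called in any comparison. Lrp1 (chr10:127538161-127621148, minus strand), a large endocytic receptor that clears Apoe particles and many other ligands, ranged from 298 to 366 CPM among WT-D mice and from 233 to 413 among WT-S mice. In the 3xTg line its range was 155 to 334 CPM with vehicle and 186 to 410.1 with CAY10566. The fitted pairwise differences ran from −0.33 in WT-D vs 3xTg-D to 0.32 in 3xTg-D vs 3xTg-S, and the interaction was 0.54, all with intervals that included 0. Lrp1 was called in WT-D vs WT-S only when WT-S mouse 4 was left out (−0.45, edgeR, adjusted p = 0.230), against −0.22 with all mice. Lrp8 (chr4:107801869-107876840), the Apoe receptor that also binds reelin, had 73.4, 69.1, 73.3 and 77.9 CPM in 3xTg-D and 82.1, 78.2, 81.8 and 96.4 CPM in 3xTg-S. These groups did not overlap, yet the difference of 0.20 ± 0.08 was not called (interval 0.03 to 0.37, adjusted p = 0.722 by edgeR). Of the fits that each left out 1 mouse, the one without 3xTg-S mouse 2 called it (0.24). Vldlr (chr19:27216484-27254231), the second reelin receptor, had group means of 115 to 125 CPM, and all its intervals included 0.

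The cholesterol exporters were also not called. Abca1 (chr4:53030787-53159895, minus strand), which lipidates nascent Apoe particles, had 68.1, 60.4, 57.6 and 54.2 CPM in WT-D and 56.2, 53.4, 52.5 and 52.2 CPM in 3xTg-D. The groups overlapped, and the difference was −0.16 (interval −0.32 to −0.01, adjusted p = 0.372 by edgeR). Abcg1 (chr17:31057675-31117988), which adds cholesterol to partly lipidated particles, was flat, with group means of 77.8 to 80.0 CPM and pairwise differences of −0.05 to 0.00.

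Counted over the 10 genes, the calls were few. In WT-D vs 3xTg-D, 1 of 10 genes was called, beside 4.91% of all 16475 tested genes, and the same gene, Pltp, passed an adjusted p of 0.05 or less, as did 1.85% of all genes. In WT-S vs 3xTg-S, 2 of 10 were called beside 4.26% of all genes, and 1 passed adjustment beside 1.40%. In WT-D vs 3xTg-S these were 2 of 10 beside 5.69%, and 1 beside 1.58%. Within 3xTg mice, 1 of 10 was called beside 0.904% of all genes. Within WT mice none of the 10 was called by edgeR or by DESeq2, beside 0.188% of all genes by edgeR. There 2 of the 10 had an unadjusted p under 0.05 by edgeR, beside 371 of all 16475 tested genes. The interaction called none of the 10 with either tool, beside 0.595% of all genes by edgeR. It had 1 of the 10 under an unadjusted 0.05 by edgeR, beside 821 of all 16475 tested genes. Groups whose CPM did not overlap were found for 1 of the 10 genes in WT-D vs 3xTg-D, 2 in WT-S vs 3xTg-S, 2 in WT-D vs 3xTg-S, 2 in 3xTg-D vs 3xTg-S and 1 in WT-D vs WT-S. Over all tested genes the shares were 8.17%, 6.75%, 9.55%, 3.16% and 1.48%. With so few genes, 1 or 2 calls say nothing about the list as a whole. The median log2 difference of the 10 genes lay between −0.07 and 0.07 in all 6 contrasts, beside a median over all tested genes that lay within 0.01 of 0.

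**Figure D4:**
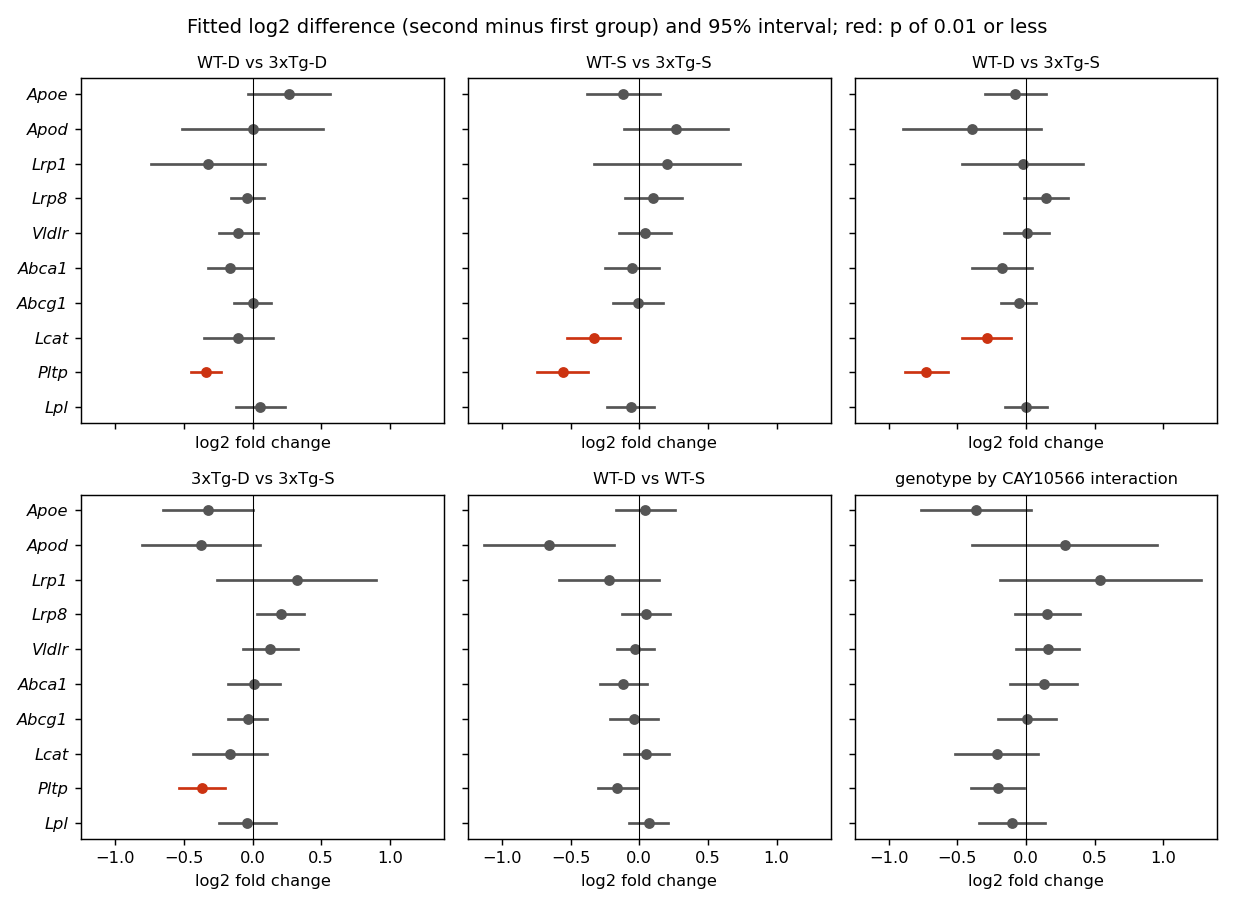
Fitted log2 fold change (point) and 95% interval (line) of each gene in the 5 pairwise comparisons and the interaction, red where p was 0.01 or less. Pltp is red and left of 0 in 4 panels, Lcat in 2, and the widest intervals belong to Lrp1 and Apod.

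The levels of Apoe and of the receptors followed a measure of library composition. Of the uniquely mapped reads of a mouse, 7.82% to 15.1% lay outside annotated genes. Over the 16 mice, Apoe fell with that share (Pearson's r −0.752, permutation p 0.00089, adjusted 0.0045; Spearman's rho −0.788, permutation p 0.00049, adjusted 0.0025). Lrp1 rose with it (r 0.835, permutation p 8e-05, adjusted 0.0008; rho 0.885, permutation p 2e-05, adjusted 0.0002). Lrp8 (r 0.716, adjusted permutation p 0.0059; rho 0.650, adjusted 0.026) and Vldlr (r 0.695, adjusted permutation p 0.0078; rho 0.629, adjusted 0.027) also rose, and the other 6 genes, Pltp included (r −0.04, rho −0.01), passed neither test. The adjustment was over 10 relations with 100000 two-sided permutations each. The permutations treated the 16 mice as exchangeable, so these p-values take no account of group or replicate number. After leaving out the 2 mice with the most extreme shares, r was −0.741 for Apoe, 0.798 for Lrp1, 0.690 for Lrp8 and 0.536 for Vldlr. Within groups r was −0.745 for Apoe, 0.827 for Lrp1 and 0.532 for Pltp, and within replicate numbers it was −0.369, 0.613 and −0.207, so the Apoe relation was weaker among mice of the same number. 3xTg-D mouse 2, with 8.79% of reads outside genes, had the highest Apoe and the lowest Lrp1 of all mice. With the share as a covariate, Apoe differed by 0.09 in WT-D vs 3xTg-D and by −0.19 in 3xTg-D vs 3xTg-S, and neither was called. Pltp under the same covariate was −0.35 and −0.41 in these comparisons and was called in both.

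**Figure D5:**
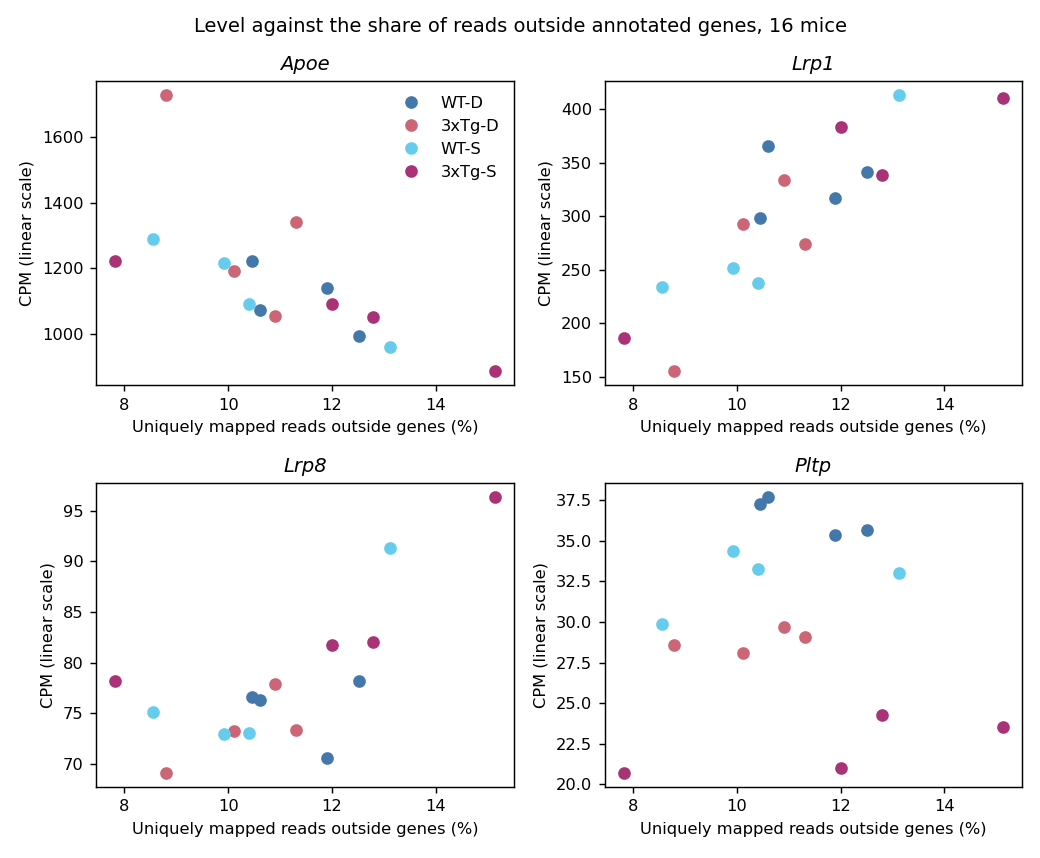
CPM of Apoe, Lrp1, Lrp8 and Pltp (linear axes that do not start at 0) against the percent of uniquely mapped reads outside annotated genes, 1 point per mouse coloured by group. Apoe falls and Lrp1 and Lrp8 rise from 7.82% to 15.1%, while Pltp separates by group at all shares.

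Beyond the 10 genes, 53 other genes of lipoprotein handling were listed and 41 of them were tested. In WT-D vs 3xTg-D, 1 of the 41 (2.44%, beside 4.91% of all tested genes) was called, Angptl4, which encodes an inhibitor of lipoprotein lipase (1.23 ± 0.317 against 2.09 ± 0.3004 CPM, SD, n = 4; log2 0.77, edgeR, adjusted p = 0.154). In WT-S vs 3xTg-S the 1 called (2.44%, beside 4.26%) was Nr1h3, the oxysterol receptor LXRα (−0.61, edgeR, adjusted p = 0.230). Nr1h3 was scarce, at 1.99 ± 0.213 CPM in WT-S and 1.32 ± 0.177 CPM in 3xTg-S (SD, n = 4). In WT-D vs 3xTg-S, 3 of 41 were called (7.32%, beside 5.69%). Apoc1, a small apolipoprotein, was lower (−0.88, edgeR, adjusted p = 0.165) but scarce, at 0.701 ± 0.105 CPM in 3xTg-S against 1.29 ± 0.379 in WT-D (SD, n = 4). Srebf1, the lipogenic transcription factor gene and LXR target, was also lower, at 26.4 ± 1.75 against 33.6 ± 2.07 CPM (SD, n = 4; −0.37, edgeR, adjusted p = 0.039). Rxra, the partner of LXR, was higher (0.32, edgeR, adjusted p = 0.059). None of the 41 was called within 3xTg mice, within WT mice or in the interaction. No gene of the 15 other receptors and receptor chaperones tested, nor of the 11 other sterol transporters, was called anywhere.

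The genes whose log2 CPM was most like each member's over the 16 mice, out of 13165 compared, differed in how far the likeness held within groups. For Apoe they included Cst3 (r 0.966, 0.960 within groups) and Clu (0.955, 0.967 within groups), itself a brain apolipoprotein. For Lrp1 they were Ubr4 (0.990, 0.993 within groups), Plec and Prrc2c. For Pltp they were Slc38a3 (0.890), Mxra8 (0.881) and Antxr1 (0.874), and within groups these were only 0.251, 0.152 and 0.695. For Lcat they were Rcn3, Pygb and Fcgrt, at 0.885 to 0.808. The points share library and depth, and these values are descriptions of the 16 libraries. The nearest to Apod were Gm2629, Copz2 and Sh2b2, to Lpl Nol10, Pdss2 and Armcx5, to Lrp8 Nsd3, Ncoa2 and Tcf20, and to Vldlr Ubr3, Pikfyve and Esyt2. Abca1 was nearest to Hmgn3, Sat1 and Wrn, and Abcg1 to Vps11, Hid1 and Nacad.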

How the data were processed

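The authors trimmed reads with Trimmomatic 0.35, aligned them with STAR 2.5.1b to GRCm38 (Gencode M23) and deposited raw counts per gene for 16 libraries. The strand setting of the counting was not stated. A protocol text shared by the samples names another inhibitor, while the treatment labels name the Cayman compound, so the mice were taken as the CAY10566 cohort. Genes were filtered with edgeR 4.0.16 (filterByExpr, minimum count 10), normalized by TMM and compared pairwise by the quasi-likelihood test (two-sided). The interaction was (3xTg-S minus 3xTg-D) minus (WT-S minus WT-D) over all 16 mice. Adjusted p-values (Benjamini-Hochberg) cover all tested genes. log2 CPM used a prior count of 2. Exon lengths and overlaps came from Gencode M21, where the span of Lrp8 differs from the table's. Fits were tested on simulated counts.

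All 10 members were named, then the pathway genes called in any comparison and the 3 genes most correlated with each member. One gene of that last set and one part of the 3xTg genotype are not reported here. Members and lists were chosen with earlier results of these data known. Deviations from group means of same-numbered mice correlated over 0.1 for all 4 pairs in WT-D vs WT-S alone (0.114 to 0.340, against −0.07 on average for other pairs). The labels' replicate numbers were therefore taken to pair those mice. The same-numbered average there, 0.217, did not stand apart from 0.241 in WT-S vs 3xTg-S or 0.213 in 3xTg-D vs 3xTg-S, so the pairing is an assumption. Alternatives were median-ratio size factors, DESeq2 1.42.0 (also with DEGES size factors), other filters, 1 fit of all groups, the replicate block, covariates, the adjusted threshold and each mouse left out. Ependymal and endothelial covariates, and leaving out 2 mice with choroid plexus transcripts, were added after the values were seen.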

Additional observations from a re-analysis of the deposited data

Results flagged for a closer look

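Within groups of 4 mice, 84 sets of values were checked for a mouse far from the other 3, by the ratio of its gap to the group's range (Dixon's test at 95%). Chance gives about 1 in 20, and 6 of 84 exceeded it, 3 of them among the 40 sets of the 10 genes. WT-S mouse 4 had 413 CPM of Lrp1 against 233 to 252 in the other WT-S mice. The same mouse had 91.3 CPM of Lrp8 against 73.0 to 75.1, and 13.1% of its reads lay outside genes. 3xTg-D mouse 2 had 99.9 CPM of Vldlr against 118 to 121. Choroid plexus markers summed to 754 CPM in WT-D mouse 4 against 29.5 to 63.2, and to 302 CPM in WT-S mouse 1 against 28.7 to 33.4. Ependymal markers summed to 10.4 CPM in 3xTg-S mouse 4 against 11.8 to 12.1, a gap that was large because the other 3 lay close together.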

How the results depend on the processing

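Pltp kept its direction in every alternative run. It stayed called in all of them when 3xTg-D was compared with WT-D, and 3xTg-S with WT-S or with WT-D, and in 3xTg-D vs 3xTg-S in all but the ependymal covariate and the adjusted threshold. Its adjusted p reached at most 0.054 in WT-D vs 3xTg-D, 0.424 in WT-S vs 3xTg-S and 0.789 in WT-D vs 3xTg-S, the last 2 with the ependymal covariate. The number of the 10 genes called moved by more than 1.5 times in these settings, or the genes called changed. At an adjusted p of 0.05 or less it was 1 in WT-S vs 3xTg-S, 0 in 3xTg-D vs 3xTg-S and 1 in WT-D vs 3xTg-S. With the choroid plexus covariate it was 2 in WT-D vs 3xTg-D (Abca1 added) and 1 in WT-D vs 3xTg-S, where the fibroblast covariate and 1 fit of all 16 mice also gave 1. In WT-S vs 3xTg-S the choroid plexus covariate gave 3 (Apod added, 0.49). The ependymal covariate gave 0 in 3xTg-D vs 3xTg-S. In WT-S vs 3xTg-S it gave 2 with Apod (0.95) in place of Lcat, as it did in WT-D vs 3xTg-S (Apod 1.55). Under it, 16, 211 and 147 of all 16475 tested genes were called in these comparisons, against 149, 702 and 937 in the main fits. In WT-D vs WT-S, 1 was called without a count filter (Apod), with the replicate block (Apod), with the endothelial covariate (Pltp) and without the 2 mice with choroid plexus transcripts (Apod). The interaction called 1 with the share of reads outside genes as covariate (Pltp).

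With the replicate block, 3xTg-D vs 3xTg-S called 4 of the 10 genes (Pltp, Lrp8, Apoe and Lrp1) and the interaction 1 (Apoe). Of the 4 in 3xTg-D vs 3xTg-S, Pltp and Lrp1 also passed adjustment under the block (adjusted p = 0.035 and 0.0397 by edgeR), and Lrp8 and Apoe did not. Over all 16475 tested genes, the block raised the calls from 149 to 1133 in 3xTg-D vs 3xTg-S and from 98 to 624 in the interaction. Genes passing adjustment rose from 0 to 204 in 3xTg-D vs 3xTg-S and stayed at 0 in the interaction. In 3xTg-D vs 3xTg-S, 2 of the 4 same-numbered pairs correlated over 0.1, and the numbers are not tied to a stated litter or surgery day. The other pairwise comparisons outside WT-D vs WT-S kept their counts under the block. Leaving out each mouse gave counts of 1 to 1 in WT-D vs 3xTg-D, 1 to 2 in WT-S vs 3xTg-S, 1 to 2 in 3xTg-D vs 3xTg-S, 0 to 1 in WT-D vs WT-S, 1 to 2 in WT-D vs 3xTg-S and 0 to 0 in the interaction.

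Directions reversed for Apoe (0.16) and Lrp1 (−0.18) in 3xTg-D vs 3xTg-S and for Apod (1.55) and Lrp8 (−0.23) in WT-D vs 3xTg-S under the ependymal covariate, and for Lrp1 in 3xTg-D vs 3xTg-S with the share covariate (−0.0074). The cause was not tested. Among the 40 other results of a gene in a comparison, 94 of 871 fits changed sign and none was called. Depth limits Lcat most, with 229 to 492 reads per mouse.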
